A study of Drosophila melanogaster with 3 samples.

Results

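The tRNA genes of the fruit fly Drosophila melanogaster were examined for places where the tagged chromatin protein Pif1B was recovered in pupae. They are all 312 genes of biotype tRNA among the 18358 genes of the Ensembl annotation of the BDGP6 assembly, transposable elements left out. Of these, 290 lie on the chromosome arms and 22 on the mitochondrial genome. A gene was called marked when a peak summit, the position of strongest signal inside a called region, lay within 500 bp of its start. The choice of genes used no measured value. The IDR list holds regions that pass a test of reproducibility between replicates (IDR is the irreproducible discovery rate), and the relaxed lists also hold weaker regions. The authors name the pooled relaxed list as peaks and background, the input for that test. A relaxed mark alone is therefore not shown to be a bound site.

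The chromatin came from a stable transgenic line in which Pif1B carried an eGFP at its C-terminus, and it was precipitated with an antibody against GFP. There was 1 group, Pif1B-eGFP pupa, with 3 biological replicates. Each was a sample of whole pupae of both sexes pooled, of unknown age, and its chromatin was sheared by sonication. The control libraries named in the labels were not analysed here, and there was no untagged or untreated group, so no value below is set against a measured background. Whole animals mix all cell types of the pupa, and a region bound in few cells cannot be told apart from one bound weakly in many.

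Nuclear transfer RNA genes are short genes read by RNA polymerase III. Their promoter lies inside the transcribed sequence, as the A box and the B box, which the factor TFIIIC recognises, and TFIIIC brings TFIIIB and the polymerase to the start. Most tRNAs are encoded by several near-identical genes that often stand in clusters, and such clusters are known in several organisms as places where chromatin proteins gather.

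The sequences below show where the summit lay in relation to the gene at 5 of the stretches of DNA that carry the results, and each line gives the gene and the DNA up to 10 bases past the summit. They are read 5′ to 3′ on the strand of the tRNA gene, with the bases of the gene in capitals, from RefSeq (dm6). The first is the strongest region at any tRNA gene, chr3R:8669081-8669379 on the minus strand, with the summit at base 11. The next is the strongest region at a tRNA gene with no coding start nearby, chrX:3427452-3427708 on the minus strand, with the summit also at base 11. The Pro-TGG-1-2 stretch, chr3R:17619921-17620032 on the plus strand, has the summit at base 11, and the Asp-GTC-1-5 stretch, chr2L:8541761-8541862 on the plus strand, has it at base 92, downstream of the gene. Ser-AGA-2-4, chr2L:3173003-3173084 on the minus strand, is shown alone because the summit fell inside it, at base 30.
Tyr-GTA-1-8: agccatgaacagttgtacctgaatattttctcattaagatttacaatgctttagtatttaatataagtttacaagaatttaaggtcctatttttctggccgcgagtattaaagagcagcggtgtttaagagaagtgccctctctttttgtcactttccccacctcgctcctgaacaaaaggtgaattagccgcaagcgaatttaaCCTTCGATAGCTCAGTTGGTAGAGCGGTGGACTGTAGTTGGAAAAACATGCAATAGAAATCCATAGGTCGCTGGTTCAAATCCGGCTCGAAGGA
Gln-TTG-2-1: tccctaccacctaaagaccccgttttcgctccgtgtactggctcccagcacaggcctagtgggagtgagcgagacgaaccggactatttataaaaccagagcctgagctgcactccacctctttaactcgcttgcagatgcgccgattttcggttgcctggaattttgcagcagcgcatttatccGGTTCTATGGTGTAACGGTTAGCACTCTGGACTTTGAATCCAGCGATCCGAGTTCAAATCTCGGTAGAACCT
Pro-TGG-1-2: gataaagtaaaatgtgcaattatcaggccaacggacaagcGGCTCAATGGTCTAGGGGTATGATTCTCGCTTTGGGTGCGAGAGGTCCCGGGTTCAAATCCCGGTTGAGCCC
Asp-GTC-1-5: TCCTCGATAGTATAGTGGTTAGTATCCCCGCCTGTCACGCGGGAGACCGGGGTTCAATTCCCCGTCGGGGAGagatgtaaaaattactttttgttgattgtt
Ser-AGA-2-4: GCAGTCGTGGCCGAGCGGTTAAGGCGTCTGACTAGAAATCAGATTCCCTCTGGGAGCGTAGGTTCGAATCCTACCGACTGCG

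The tRNA genes were marked about as often as other genes in the IDR list and more often in the pooled relaxed list. In the IDR list, 35 of 312 tRNA genes were marked, which is 11.2% (95% Clopper-Pearson interval 7.94 to 15.3), beside 11.7% of all genes. In the pooled relaxed list, 147 tRNA genes were marked, which is 47.1% (interval 41.5 to 52.8), beside 29.5% of all genes. These intervals cover counting error only, and neighbouring tRNA genes share summits, so the genes are not independent. The marks came from 23 separate summits in the IDR list and 127 in the pooled relaxed list.

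Each replicate gave the same ordering in its relaxed list. Relaxed regions marked 164 tRNA genes in replicate 1, 133 in replicate 2 and 150 in replicate 3, which are 52.6%, 42.6% and 48.1% of the genes, or 47.8% ± 4.98 (SD, n = 3). Over all genes the shares were 32.8%, 35.8% and 30.5%, or 33.0% ± 2.65 (SD, n = 3). The tRNA share was the higher in 3 of 3 replicates, by 14.7 ± 6.93 percentage points (SD, n = 3). The two-sided exact sign-flip permutation test gave p = 0.25, the smallest p that 3 replicates allow. With only the strongest regions of each replicate, as many as the IDR list holds, 42, 28 and 35 tRNA genes were marked, or 11.2% ± 2.24 (SD, n = 3). All genes stood at 12.7%, 14.2% and 11.7%, or 12.8% ± 1.26 (SD, n = 3), and the difference of -1.62 ± 3.16 points lay within the spread between replicates, with p = 0.75 in the same exact test.

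**Figure D1:**
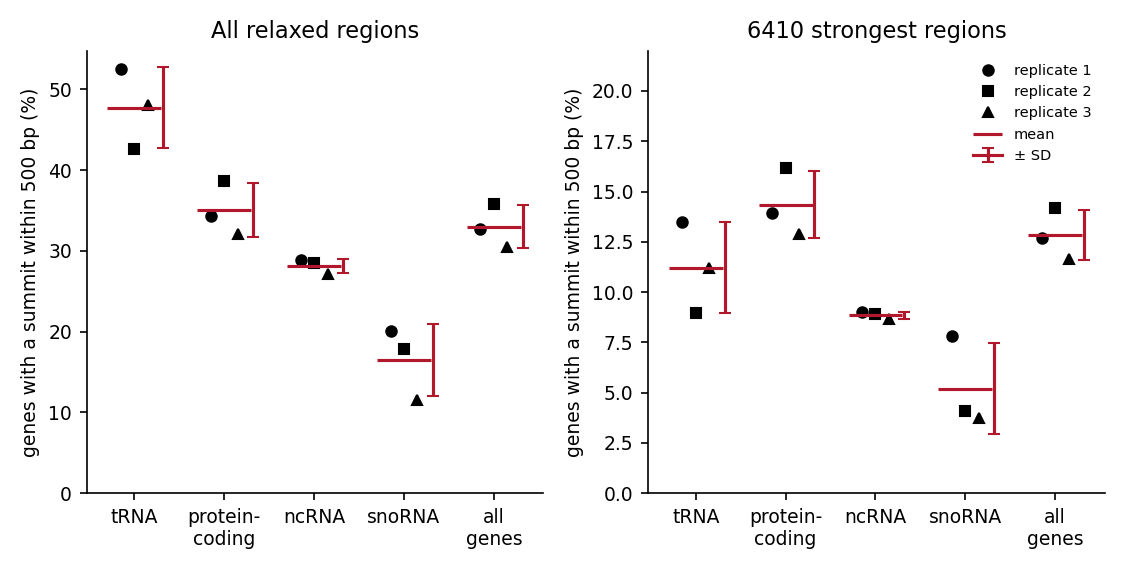
Share of genes of each class with a summit within 500 bp of the start (vertical axis, percent), in the relaxed lists (left) and among the strongest regions of each replicate, as many as the IDR list holds (right). Points are the 3 replicates, and red lines give the mean and SD. The tRNA points on the left, 42.6% to 52.6%, all lie above those of all genes, 30.5% to 35.8%, and on the right the tRNA points, 8.97% to 13.5%, overlap those of all genes.

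Set against single classes of genes, the tRNA share in the relaxed lists was 12.7 ± 7.67 percentage points above that of protein-coding genes, 19.6 ± 4.94 points above that of ncRNA genes and 31.3 ± 5.98 points above that of snoRNA genes (SD, n = 3). Each difference was positive in 3 of 3 replicates, with p = 0.25 in the exact sign-flip test. Among these strongest regions the tRNA share was below that of protein-coding genes in 3 of 3 replicates, with a mean difference of -3.12 ± 3.57 points that is smaller than its SD. It was 6.01 ± 1.34 points above that of snoRNA genes, which like tRNA genes are short and noncoding but are mostly read by RNA polymerase II from host introns.

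The tRNA genes with a relaxed mark were less often marked by a strong region than the protein-coding genes with one. Of the tRNA genes marked in the relaxed list of a replicate, 25.6%, 21.1% and 23.3% were also marked by its strongest regions, taken as above, or 23.3% ± 2.28 (SD, n = 3). The same share was 40.9% ± 0.828 (SD, n = 3) for protein-coding genes, and the difference of -17.5 ± 2.93 points was negative in 3 of 3 replicates, with p = 0.25 in the exact sign-flip test. In the pooled lists, 23.8% of the relaxed-marked tRNA genes were in the IDR list, beside 42.0% for protein-coding genes and 39.6% for all genes. The median of the strongest relaxed signal at a marked gene was 44.7 for tRNA genes and 65.0 for all genes. Counted by summit, the 127 relaxed summits had a median signal of 41.7, beside 38.7 over all pooled relaxed regions. Signal is the value that the authors gave each region, used here only to rank regions within a list.

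Because tRNA genes crowd together, the density of summits over the DNA near them was also counted, with overlapping windows merged and each summit counted once. The 175 merged windows within 500 bp of nuclear tRNA starts span 219.868 kb and held 578 pooled relaxed summits per Mb, beside 369 per Mb in the windows of all genes and 224 per Mb over the chromosome arms. The surrounding ring from 500 to 2000 bp held 353 per Mb at tRNA genes and 204 per Mb at protein-coding genes. The DNA around tRNA genes thus held more relaxed summits than that around coding genes at both distances, and the near-to-ring ratios were 1.63 and 1.86. In the relaxed lists of the 3 replicates the density near tRNA starts was 628, 514 and 559 per Mb, and in the ring it was 389, 362 and 347 per Mb. The near windows were the denser in 3 of 3 replicates, by 201 ± 44.2 per Mb (SD, n = 3), with p = 0.25 in the exact sign-flip test. At snoRNA genes the ratio was 0.802 in the pooled relaxed list, with fewer summits near the start than in the ring. By replicate the snoRNA difference was -47.1 ± 64.2 per Mb (SD, n = 3), with p = 0.5 in the exact sign-flip test. The near windows were the denser in 1 of 3 replicates.

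In the IDR list the tRNA windows held 105 summits per Mb and the ring 61.4, and the windows of all genes held 117. The near-to-ring ratio was 1.70 for tRNA genes and 2.61 for protein-coding genes. At tRNA genes with no coding start within 500 bp the ratio was 1.55, from 18 summits near the start and 26 in the ring. At those with one it was 2.59, from only 7 near and 7 in the ring. With the strongest regions of replicates 1, 2 and 3, the ratio without a coding start was 1.72, 1.05 and 1.43. With a coding start it was 3.45, 2.01 and 2.95, from 8, 7 and 8 summits near the start and 6, 9 and 7 in the ring. With so few summits the ratios with a coding start are imprecise. The nearest relaxed summit was at a median of 474.5 bp from a nuclear tRNA start, beside 2496 bp for protein-coding, 1516 bp for ncRNA and 2193 bp for snoRNA genes.

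Summits stood on either side of tRNA starts. In the pooled relaxed list, 64 of the 127 summits lay upstream of the nearest tRNA start and 63 downstream, at a median distance of 163 bp. At protein-coding genes 63.3% lay upstream. The fullest bins of 100 bp were those from -200 to -100 bp and from 0 to 100 bp, with 27 summits each, or 9.31 per 100 tRNA genes. Of the 127 summits, 23 lay inside a tRNA gene, which is 18.1%, and tRNA genes make up 10.02% of the bases in the windows. In the IDR list 12 summits lay upstream and 11 downstream, 4 were at most 100 bp from a start, and the 1 inside a gene was that of Ser-AGA-2-4. At 73.5% of the IDR regions the width is 430 bp, as at 17 of these 23, and how precisely the summits of such regions are placed was not tested.

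**Figure D2:**
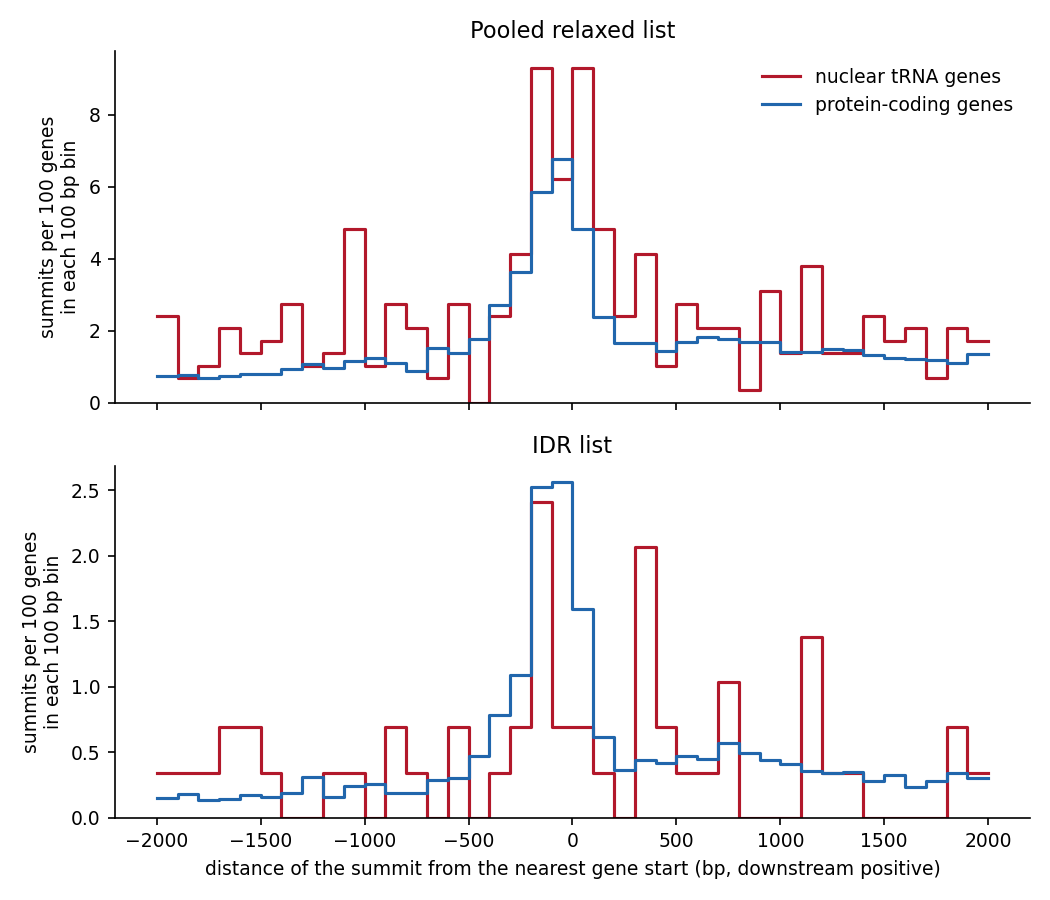
Summits per 100 genes in bins of 100 bp (vertical axis) by distance from the nearest gene start (horizontal axis, bp, downstream positive) for the 290 nuclear tRNA genes (red) and for protein-coding genes (blue), in the pooled relaxed list (top) and the IDR list (bottom). In the top panel the tRNA line peaks at 9.31 on both sides of the start, and the coding line peaks at 6.77 just upstream.

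The 23 IDR summits ranged in signal from 85.2 to 716, with a median of 141, beside a median of 137 over the whole IDR list. Of these, 13 lay above that median, 2 lay among the 641 strongest regions of that list and 2 among its 641 weakest. All 23 overlapped a relaxed region in each of the 3 replicates. Among the strongest regions of a replicate, 15 were found in 3 replicates, 7 in 2 and 1 in a single replicate. That is 65.2% in all 3, and over the whole IDR list it was 65.6%.

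The strongest was the summit 195 bp upstream of Tyr-GTA-1-8, one of 10 genes for the tRNA that carries tyrosine, which lies on 3R in an intron of both CG8036 and p. Its region had a pooled signal of 716 and rank 93, and it ranked 139, 50 and 128 in replicates 1, 2 and 3. A start of CG8036 lay 249 bp from the summit, so the region has 2 starts within reach. It stood far above the next tRNA region in each replicate.

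Gln-TTG-2-1, on X in an intron of CG12535, had the next region. Its summit lay 175 bp upstream of the gene, with signal 356 and pooled rank 625, and ranks of 640, 512 and 705 in the replicates. The nearest coding start, that of CG14269, was 8109 bp away, which makes this the strongest region at a tRNA gene with no coding start within 500 bp. Lys-TTT-1-1, in an intron of the tyrosine kinase gene Btk, followed with a summit 314 bp downstream of its start. Its signal was 276 and its ranks were 1136, 1235 and 955, with the nearest coding start 6083 bp away. Both regions, neither with a nearby coding start, held similar ranks in all 3 replicates.

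The summit shared by Ala-AGC-2-2, Pro-TGG-1-2 and Ala-AGC-2-3 on 3R lay 30 bp upstream of the proline gene, with signal 259, and ranked 646, 3414 and 1328. The summit at Leu-TAA-2-1, 194 bp upstream, had signal 234 and ranks 947, 1677 and 2015, with a start of CG13605 381 bp away. At Ser-AGA-2-4 the summit inside the gene had signal 141 and ranks of 2878, 2981 and 3675. The ranks of the serine region lay closest together of these 3, and those of the shared alanine and proline region farthest apart.

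Of the summits near a coding start, that at Phe-GAA-1-2 lay 20 bp from a start of RpL17, a gene for a protein of the large ribosomal subunit, and 325 bp from the tRNA start. It had signal 201 and ranked 2128, 1561 and 3119. That at His-GTG-1-3 lay 112 bp from a start of CG8490 and 138 bp from the tRNA start, with signal 266 and ranks 1350, 581 and 1920. At Val-CAC-2-5 the start of Naam, a nicotinamidase gene, was 436 bp from the summit and the tRNA start 463 bp, with ranks of 994, 4522 and 2017. At Pro-CGG-2-1 the start of Bx, a gene for a LIM-domain cofactor, was 185 bp away and the tRNA start 357 bp. In all, 9 of the 23 summits had a coding start within 500 bp, and 5 were nearer to it than to the tRNA start. Such summits cannot be given to one of the 2 genes.

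Shared summits marked 2 to 4 tRNA genes at once. Of the 23, 14 had 1 tRNA gene within 500 bp, 5 had 2, 3 had 3 and 1 had 4. The last lay in an intron of the chitinase gene Cht7 among Cys-GCA-1-1, Cys-GCA-1-2, Cys-GCA-1-3 and Lys-CTT-1-12, with signal 98.5 and ranks 4796, 7172 and 4244. The 3 cysteine genes have identical sequences. An intron of mrj, a gene for a DnaJ-type chaperone, holds Glu-TTC-1-1, Glu-CTC-1-1 and Glu-TTC-1-2, whose summit had signal 99.2 and ranks 14467, 2944 and 5623. An intron of hts, the adducin gene, holds Ser-CGA-1-4, Val-AAC-2-1 and Val-AAC-2-2, whose summit had signal 92.2 and ranks 5898, 11527 and 5425. These last 2 regions were each outside the strongest regions of 1 replicate.

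Pairs of genes shared the summits at Gln-TTG-1-2 and Gln-TTG-1-3 (signal 183), Arg-CCT-1-2 and Arg-CCT-1-3 (signal 115) and Ser-TGA-1-1 and Ser-TGA-2-1 (signal 104). The arginine region ranked 14880, 2077 and 4789, and the serine region 3012, 15946 and 6047, so that each fell far down the list of a different replicate. Asp-GTC-1-4 and Asp-GTC-1-5 shared 2 summits, of signal 102 and 100, near a start of Sema1a, a gene for an axon guidance protein, at 68 and 295 bp. Both summits fell in 1 and the same region of each replicate. The remaining marks were single genes: Pro-AGG-1-2 with signal 164, Ala-TGC-2-1 with 143, Arg-TCG-3-4 with 141, Leu-CAG-1-1 with 90.1 and Leu-TAA-4-1, in an intron of the myosin gene jar, with 85.2.

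**Figure D3:**
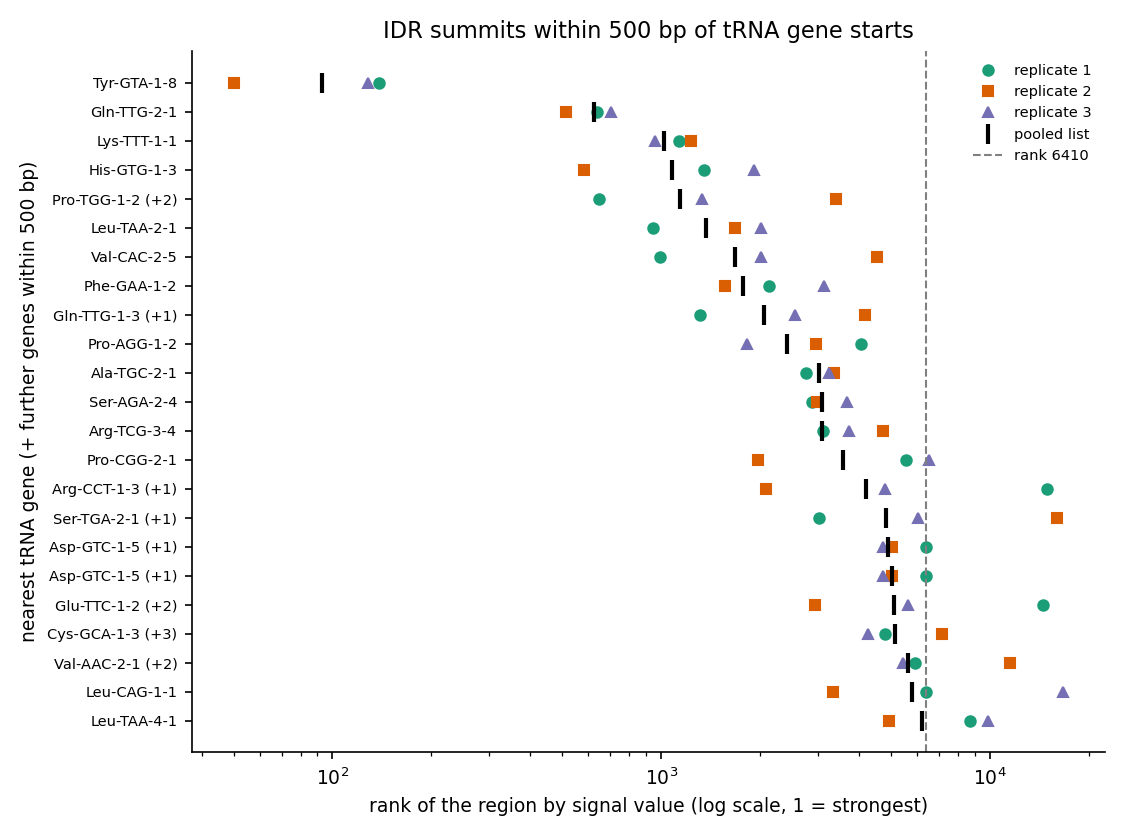
Rank by signal (horizontal axis, log scale, 1 is the strongest) of the 23 regions of the IDR list within 500 bp of a tRNA start, in each replicate (coloured points) and in the pooled list (black bars), with the nearest tRNA gene at the left and the number of further genes in parentheses. The dashed line is the last rank of the IDR list. Tyr-GTA-1-8 ranks 50 to 139, ahead of the other 22 in each replicate, and points scatter past the line toward the bottom.

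Genes that carry the same anticodon, in nearly the same sequence, were marked at separate places. Of the 4 Gln-TTG genes 3 were marked, by 2 summits on different chromosomes. The fourth, Gln-TTG-1-1, has the same sequence as Gln-TTG-1-2 and Gln-TTG-1-3 but was unmarked in both pooled lists, 12482 bp from the nearest relaxed summit. Leu-TAA-3-1 was also unmarked, at 14086 bp. The genes below are shown because they compare marked copies, from RefSeq (dm6), with the bases matching the short B box GTTCNANNC in capitals. Gln-TTG-1-3, chr3R:26947512-26947583 on the minus strand, differs from Gln-TTG-2-1, chrX:3427452-3427523 on the minus strand, by 1 of 72 bases (T16C, counted from the 5′ end of the gene). Leu-TAA-2-1, chr3R:24112964-24113047, and Leu-TAA-4-1, chr3R:24265259-24265342, both on the plus strand, differ by 3 of 84 bases (C2T, A55G and G82A). Their regions had signals of 183 and 356, and of 234 and 85.2.
Gln-TTG-1-3: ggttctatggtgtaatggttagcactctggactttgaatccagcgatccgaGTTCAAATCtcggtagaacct
Gln-TTG-2-1: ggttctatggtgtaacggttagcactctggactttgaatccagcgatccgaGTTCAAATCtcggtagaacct
Leu-TAA-2-1: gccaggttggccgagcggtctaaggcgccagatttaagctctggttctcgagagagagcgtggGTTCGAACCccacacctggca
Leu-TAA-4-1: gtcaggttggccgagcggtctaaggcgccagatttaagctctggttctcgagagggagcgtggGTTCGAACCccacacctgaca

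Strong regions marked a larger share of the tRNA genes near a coding start than of the others, and in the pooled relaxed list the shares were alike. Among the 290 nuclear genes 32 had a protein-coding start within 500 bp and 258 had none. In the IDR list 7 of the 32 were marked, which is 21.9% (95% Clopper-Pearson interval 9.28 to 40.0), and 28 of the 258, which is 10.9% (interval 7.33 to 15.3). These intervals overlap. The class is set by the tRNA start and not by the summit. Among the 28, Val-CAC-2-5, Pro-CGG-2-1 and Asp-GTC-1-4 were marked by summits that lay within 500 bp of a coding start. In the pooled relaxed list 16 of the 32 and 131 of the 258 (50.8%) were marked.

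By replicate, the strongest regions marked 9, 8 and 9 of the 32 genes with a coding start, or 27.1% ± 1.80 (SD, n = 3). They marked 27, 20 and 26 of the 258 genes without one, or 9.43% ± 1.47 (SD, n = 3). The share without a coding start was the lower in 3 of 3 replicates, with a difference of -17.7 ± 0.400 points (SD, n = 3) and p = 0.25 in the exact sign-flip test. The same genes were scored in each replicate, so this SD does not cover the uncertainty that comes from only 32 genes. In the relaxed lists of the replicates the same difference was -15.6 ± 5.72 points, also with an exact p = 0.25. This restriction to nuclear genes was chosen after seeing the data. With the mitochondrial genes, 16 of which have a coding start that near, the difference was -13.0 ± 6.94 points with the strongest regions and 0.631 ± 6.20 points with all relaxed regions (exact p = 1).

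Protein-coding genes with the start of another coding gene within 500 bp were marked in 17.7% of cases in the IDR list, and those with none in 10.8%. For snoRNA genes the shares were 17.2% of 29 and 2.50% of 240. The tRNA genes with no coding start nearby were thus marked at 10.9%, beside 2.50% for the snoRNA and 7.73% for the ncRNA genes of the same kind. Some of these tRNA marks, named above, came from summits that themselves lay near a coding start, which was not counted for the other classes.

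The nuclear tRNA genes form 144 groups when neighbouring starts at most 5 kb apart are joined. Of these, 76 are single genes and 68 are clusters of 2 or more, which hold 214 genes. The IDR marks fell in 22 groups, 8 of them single genes, and the relaxed marks in 78. The relaxed-marked share was 38.2% of genes standing alone, 53.4% of those in clusters of 2 to 3, 54.1% in clusters of 4 to 9 and 68.2% of the 22 genes in the largest 2 clusters. In the IDR list the shares were 10.5%, 15.3%, 8.11% and 13.6%, with no such order. A gene in a cluster can be marked by a summit it shares, so the shares are not those of independent genes.

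The largest clusters differed in how many of their genes were marked. The cluster on 3R at 17617761 to 17631750 holds 11 genes for alanine, proline, threonine and valine tRNAs. Of these, 7 were marked by 6 relaxed summits and 3 by 1 IDR summit, that at Pro-TGG-1-2. The cluster on 2R at 6161535 to 6171759 holds 11 genes for arginine, asparagine, isoleucine and lysine tRNAs, 8 of them in an intron of EcR, the ecdysone receptor gene. It had 8 genes marked by 5 relaxed summits, with signals up to 38.9, and none by an IDR summit.

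The cluster on X at 14014814 to 14017284 holds 7 arginine and serine genes, of which 4 were marked by 3 relaxed summits and 1 by an IDR summit. That on 2R at 13430282 to 13432794 holds 7 isoleucine and leucine genes, of which 5 were marked by 4 relaxed summits. That on 2R at 19725620 to 19728958 holds 7 genes for initiator methionine and glutamate tRNAs, and all 7 were marked, by 6 relaxed summits. Neither of these last 2 clusters had an IDR summit.

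By amino acid, marks were spread over most isotypes. Of the 22 nuclear isotypes, counting initiator methionine and selenocysteine apart, 20 had a relaxed-marked gene and 14 an IDR-marked gene. Serine had the highest relaxed share, with 15 of 20 genes marked (interval 50.9 to 91.3%) by 13 summits. Tryptophan had 0 of 8 marked (interval 0 to 36.9%), and the median distance of its genes from the nearest relaxed summit was 4686.5 bp. The single selenocysteine gene was also unmarked.

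In the IDR list the highest counts were 4 of 20 serine genes, and 3 each for alanine, arginine, cysteine, glutamine, glutamate, leucine, proline and valine. The 3 cysteine marks came from 1 summit. No IDR mark fell on the 20 glycine, 17 threonine, 11 isoleucine, 10 asparagine, 6 methionine, 6 initiator methionine or 8 tryptophan genes. No isotype was tested against another. By anticodon, 24 of 45 had an IDR-marked gene. Ser-TGA had both of its 2 genes marked, by 1 summit, and Glu-TTC had 6 of 6 genes marked in the relaxed list.

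**Figure D4:**
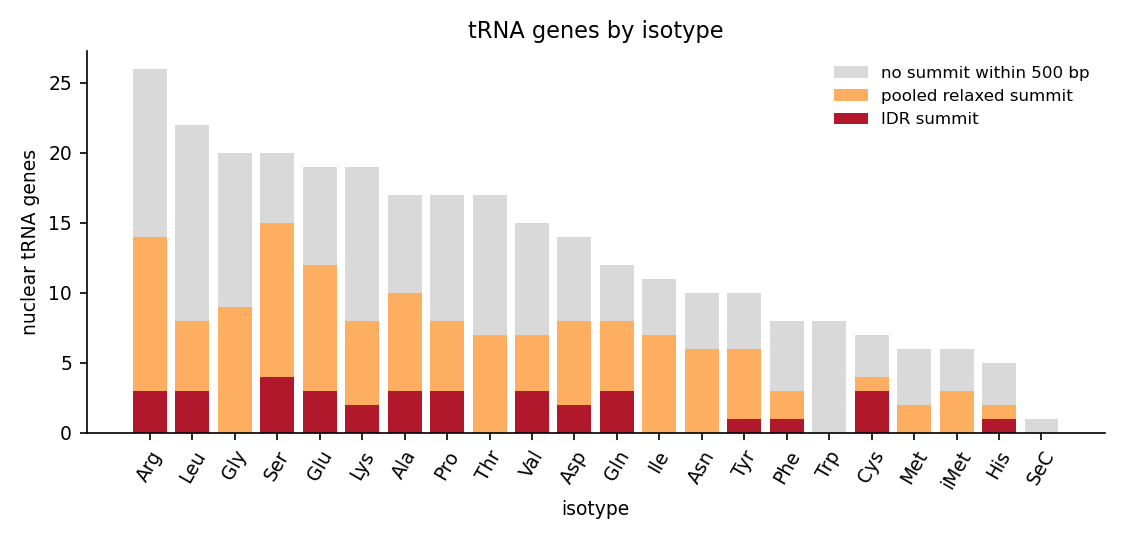
Number of nuclear tRNA genes (vertical axis) of each isotype (horizontal axis). Red counts the genes with an IDR summit within 500 bp, orange those with a pooled relaxed summit only and grey those with neither. Serine has 15 of 20 coloured, and tryptophan has 0 of 8.

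Marks were found at tRNA genes between other genes and inside their introns, and on all 5 chromosome arms that hold them. Of 156 intergenic tRNA genes 19 were IDR-marked and 80 relaxed-marked, and of 127 in introns 16 and 62. None of the 7 that overlap an exon of another gene was IDR-marked, and 5 were relaxed-marked. The relaxed share by arm was 58.5% on 2L, 51.0% on 2R, 35.4% on 3L, 55.7% on 3R and 12 of 24 genes on X. The lowest of these, on 3L, had an interval from 22.2 to 50.5%, which overlaps those of the other arms.

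The 22 mitochondrial tRNA genes had no pooled mark in either list. Replicate 1 alone had relaxed regions that marked 6 of them. Its relaxed list held 12 regions on the mitochondrial genome, that of replicate 2 held 2 and that of replicate 3 held 0.

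The limits on signal and distance each left some genes just outside. The last IDR region had a signal of 83.1542 and the next pooled region one of 83.1494. Among tRNA genes without an IDR summit, Asp-GTC-1-6 had the strongest relaxed summit, with signal 83.0. It was followed by Thr-AGT-1-4 with 81.5, Leu-CAG-1-6 with 79.4, Val-TAC-1-1 and Val-TAC-1-2 with a shared summit of 78.6 and Ile-AAT-1-3 with 78.4. Ala-AGC-2-7 and Ala-AGC-2-8 shared one of 70.2, and Asp-GTC-1-1 and Asp-GTC-2-1 one of 68.4. By distance, Val-CAC-2-5, Cys-GCA-1-1 and Val-AAC-2-2 were just inside, at 463, 469 and 479 bp from an IDR summit. Phe-GAA-1-6, Leu-CAA-2-2 and Gly-TCC-2-2 were just outside, at 512, 558 and 589 bp.

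The B box was about as frequent in marked as in unmarked genes, and the A box pattern searched matched too few genes to compare them. The shorter form of the B box, GTTCNANNC, was in 271 of the 290 nuclear genes on the sense strand, in 33 of the 35 IDR-marked ones and in 135 of the 143 with no relaxed summit. On the opposite strand it was in 12 genes. This form was added after a first search with a longer consensus B box, which holds it and was in 145 of the 290 genes, 17 of the 35 and 66 of the 143. A consensus A box was in 34 of the 290, in 2 of the 35 (5.71%) and in 19 of the 143 (13.3%), and these counts were not tested.

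In the 101 bp centred on a summit, searched on both strands, the shorter B box was in 3 of the 23 tRNA summits of the IDR list and in 2.84% of all IDR summits. In the pooled relaxed list it was in 19.7% of the 127 and in 2.71% of all summits. The 127 summits were chosen for lying near genes that hold the box, so this difference is no test. GAGAGA, the repeat bound by GAGA factor, was in 1 of the 23 and in 7.89% of all IDR summits, and CGATA, the core bound by BEAF-32, was in 1 of the 23 and in 11.4%. So few summits do not tell these shares apart. In the pooled relaxed list GAGAGA was in 3.15% of the 127 and 6.05% of all summits, and CGATA in 9.45% and 11.2%. These differences were not tested. Mean GC content in the windows of 101 bp was 34.9% at the 23 summits and 35.5% at all IDR summits.

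Reads from identical copies cannot be placed at one of them, and repetition in the DNA around the genes was therefore measured. Over the DNA within 500 bp of the start, a median of 96.1% of the 50-base words of a nuclear tRNA gene occurred once in the genome. The median was 95.7% for relaxed-marked and 96.2% for unmarked genes. Of the 31 genes under 90%, 9 were relaxed-marked, and of the 259 others 138 (53.3%). None of the 5 genes under 50% was marked. The part of repetition in the counts of marked genes was not tested, and neither the read length nor the treatment of reads with several matches was known.

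Marks were also counted at other genes of the RNA polymerase III system. Of 106 other genes read by this polymerase, 96 are 5S rRNA genes in a repeat, with no mark in either list. How far reads can be placed within that repeat was not measured. Of the other 10, snRNA:7SKa, whose RNA holds the elongation factor P-TEFb inactive, had an IDR summit of signal 143. RNaseMRP:RNA, the RNA of a ribosomal RNA processing enzyme, had a relaxed one of 46.7. The remaining 8, among them the RNase P, 7SL and U6 genes, had none in the pooled lists, and snRNA:U6:96Ab and snRNA:U6:96Ac had a relaxed summit in replicate 2 only. The counts of 1 IDR-marked and 2 relaxed-marked genes of 10 stand beside 11.7% and 29.5% of all genes, and 10 genes do not tell them apart.

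Of 19 genes for the machinery itself, 3 were IDR-marked and 6 relaxed-marked, beside 11.7% and 29.5% of all genes. So few genes do not tell these shares apart from those of all genes. The IDR-marked ones were Bdp1 with signal 424 and Brf with 366, both subunits of TFIIIB, and the polymerase subunit gene Polr3E with 295. A relaxed summit only was found at Polr3G with 70.5, Polr3F with 56.8 and La, which binds the ends of new transcripts, with 51.7. The other 13, among them Polr3A, Polr3B, Tbp, Trf and Maf1, had none in the pooled lists.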

How the data were processed

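Per the labels, the data are ChIP-seq from 3 biological replicates of 1 group. Per the file headers and accompanying text, the authors deposited a relaxed list of regions for each replicate and for the pooled replicates, and an IDR-thresholded list. In each list the deposited signal column, as the authors' peak caller wrote it, was the value used, and the column for the summit gave its offset from the region's start. The IDR threshold, aligner and caller of the regions are not stated in those sources (not given in the sources used here). The IDR list equals the strongest of the 29999 pooled regions, with the same values, and the replicate lists hold 29999, 29999 and 30000 regions, so depth is unknown and signal was compared only by rank. Lists in dm3 were not used. Coordinates are dm6, 1-based.

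Gene starts came from Ensembl release 115. A replicate region supported a pooled one when they overlapped by at least 1 bp. A group of tRNA genes joined neighbouring starts at most 5 kb apart. Replicates were compared by two-sided exact sign-flip tests, which cannot go below p = 0.25 with 3. Per the labels each replicate has its own biosample. Intervals are 95% Clopper-Pearson. The steps that mark genes were tested on simulated data. Python 3.11.15 was used with pandas 2.3.3, numpy 2.4.6, matplotlib 3.10.9 and scipy 1.17.1.

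The genes named are all IDR-marked tRNA genes, the 10 unmarked ones with the strongest relaxed summit, the 3 nearest outside 500 bp, the largest 5 clusters, nearest coding genes and the 2 RNA polymerase III lists. Anticodons, sequence pairs and classes singled out beyond these were chosen after their values were seen, as were the nuclear-only contrasts, the contrasts with single gene classes and the ring from 500 to 2000 bp. The members and lists were chosen with earlier results of these data known.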

Additional observations from a re-analysis of the deposited data

How the results depend on the processing

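The counts depended on the distance and on the list more than on how clusters were drawn. Within 250 bp, 19 tRNA genes were IDR-marked by 13 summits, 13 of the genes with no coding start within 500 bp, and within 1000 bp 55 were marked, 46 of them with no coding start. When the region itself had to overlap the gene, 14 genes were marked by 8 regions, 11 of the genes with no coding start, and 96 genes were marked in the relaxed list. With only the IDR regions above the median signal of that list, 16 genes were marked by 13 summits, 10 of them with no coding start. Only IDR regions that overlapped the strongest regions of both remaining replicates, a stricter demand than that of the IDR list, were kept when a replicate was left out. This gave 23 genes without replicate 1, 27 without replicate 2 and 20 without replicate 3, with 17 to 18 summits, 13 to 20 genes with no coding start and, in the relaxed list, 104 to 115 genes. The groups with a mark numbered 22 at a gap of 2 or 10 kb and 78 with the relaxed list.

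The difference between tRNA genes and all genes of -1.62 points became 14.7 points with all relaxed regions, 0.989 points within 1000 bp, -3.21 points within 250 bp, where it was negative in 3 of 3 replicates, and 17.6 points with all relaxed regions at nuclear genes. It ranged from -2.82 to 0.173 points with a replicate left out, and was 0.173 without replicate 2. The difference between tRNA genes without and with a coding start, -13.0 points, became 0.631 with all relaxed regions and ranged from -15.1 to -9.00 with a replicate left out. With the mitochondrial genes left out it kept its sign, at -17.7 points with the strongest regions and -15.6 points with all relaxed regions. The cause of these shifts was not tested. No pairing of samples across groups was possible because there is 1 group, and the tests compare classes of genes or DNA within each replicate. Depth is unknown, so genes without a mark are not shown to be unbound.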
